A study of Mus musculus with 5 samples.

Results

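The 10 genes described here are markers of blood vessel endothelium: the VEGF receptor genes Kdr, Flt1 and Flt4, the angiopoietin receptor pair Tek and Tie1, the co-receptor Eng, the surface and junction genes Pecam1, Cdh5 and Emcn, and the transcription factor gene Erg. They were chosen by name from the 20097 gene symbols of the table of all genes, and each had 1 listed region. RNA was measured in mouse pituitaries at e12.5, mid-gestation, on a mixed B6;129 background. The libraries labelled knockout, KO 13 and KO 16, came from embryos with both Itgb1 alleles floxed and a Pitx1-cre transgene, and the 3 control libraries came from embryos with the same floxed alleles and no Cre in the genotype. Pitx1 is a gene of the oral ectoderm and the pituitary epithelium, so the transgene is directed at the epithelium and not at vessel cells. The study asked whether integrin beta 1 in the pituitary epithelium is needed for blood vessels to enter the gland. The labels give the samples as epithelial pituitary cells. Reads over all 10 endothelial genes were present in every library, part of them expected from a background described below.

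Vessels grow into the developing pituitary from the surrounding mesenchyme and later form the portal system that carries hypothalamic signals to hormone cells. VEGF signals through KDR, with FLT1 binding much of the ligand as a decoy and FLT4 serving VEGF-C in lymphatic and sprouting vessels. TEK is the receptor for angiopoietins, TIE1 is its partner, and ERG is an ETS family factor that keeps endothelial genes such as Cdh5 active.

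Some features of the libraries bear on every value below. The levels are tags per 10000000 total tags, and the reads recovered over listed genes numbered 4480809 to 5507288 in the libraries labelled knockout and 5445240 to 6143263 in the controls. Itgb1 itself had 446 tags per 10000000 in the library labelled KO 13 and 186 in the library labelled KO 16, against 273, 426 and 431 in control libraries 9, 10 and 12, so on the deposited scale KO 13 did not lie below the controls. Relative to the median gene, defined next, Itgb1 was at -0.54 in KO 13 and -2.15 in KO 16, below each control at -0.22, -0.22 and 0.44. These are called libraries 13 and 16 from here. The median of the fitted log2 changes over the tested genes was 0.97, higher in libraries 13 and 16. Fitted changes are therefore also given with that median taken off. Values by library are instead log2 levels minus the median level of that library's tested genes, and then minus the control mean. Both are called relative to the median gene, and they can differ slightly. Library 16 stood apart. Over the 19313 tested genes, the rank correlation of level with region length was 0.69 in library 13 and 0.93 in library 16, against a control range of 0.64 to 0.73. A background was read from 406 autosomal genes of the olfactory and vomeronasal families, whose transcripts belong to sensory neurons. These had 0.47 tags per kilobase in library 13 and 1.498 in library 16, against a control range of 0.16 to 0.39. That rate times the length of a region is called the expected background below. The 45S ribosomal RNA precursor took 14.2% and 8.88% of all tags in libraries 13 and 16, against 22.2%, 16.8% and 23.5% in the controls. Region lengths ran from 17.9 kb for Tie1 to 169 kb for Erg and cover introns as well as exons.

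Promoters of 3 of the genes are shown because they carry the contrasts below: Kdr lay lowest relative to the median gene, Flt1 was among the highest in library 16, and Tie1 varied least among the controls relative to that gene. Each line is the 250 bases before the annotated start, 5′ to 3′ on the gene's strand, from RefSeq on build GRCm38.p6. Capitals mark GGAA or its reverse complement TTCC, the core that ETS factors such as ERG recognise. Kdr is shown at chr5:75978456-75978705 (minus strand), Flt1 at chr5:147726012-147726261 (minus strand) and Tie1 at chr4:118489850-118490099 (minus strand).
Kdr: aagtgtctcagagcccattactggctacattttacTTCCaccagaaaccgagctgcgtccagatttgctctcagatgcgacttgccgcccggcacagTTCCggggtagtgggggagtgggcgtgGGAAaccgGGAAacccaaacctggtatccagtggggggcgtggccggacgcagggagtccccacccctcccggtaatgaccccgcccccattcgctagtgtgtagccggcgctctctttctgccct
Flt1: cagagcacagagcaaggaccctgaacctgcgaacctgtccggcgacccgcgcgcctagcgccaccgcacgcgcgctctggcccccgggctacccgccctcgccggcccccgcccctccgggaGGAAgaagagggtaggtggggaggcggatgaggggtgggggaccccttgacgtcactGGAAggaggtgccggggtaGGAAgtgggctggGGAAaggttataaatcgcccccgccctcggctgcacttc
Tie1: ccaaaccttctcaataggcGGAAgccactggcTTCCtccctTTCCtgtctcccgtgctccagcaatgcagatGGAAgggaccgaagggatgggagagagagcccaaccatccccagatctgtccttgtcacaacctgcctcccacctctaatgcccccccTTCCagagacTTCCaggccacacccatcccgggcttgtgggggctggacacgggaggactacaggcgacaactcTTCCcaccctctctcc
The core matched 4 times in the Kdr window, 4 times in the Flt1 window and 7 times in the Tie1 window. Of the 32851 windows of this length in the RefSeq table, 93.4% held at least 1 match, with a median of 3. The longer motif CCGGAAGT, which contains the core, was searched on both strands. It was in none of these 3 windows and in 2.88% of all windows. Of the 10 genes 8 had a promoter in the table; Pecam1 and Cdh5 are not shown.

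On the deposited scale every one of the 10 genes had a higher level in both library 13 and library 16 than in any control. That order was common to the table: 50.2% of the 19313 tested genes showed it. Summed over the 10 genes, whose regions held 23 to 471 reads each, the level was 995 tags per 10000000 in library 13 and 1947 in library 16, against 508, 782 and 551 in control libraries 9, 10 and 12. The summed reads numbered 1094 and 2142 in libraries 13 and 16 and 559 to 860 in the controls. The expected background made up 37.9% of the sum in library 13 and 61.4% in library 16, against 40.5%, 40.3% and 22.6% in the controls. With this background subtracted and libraries scaled by TMM factors, which align the bulk of the genes, the sum was 425 in library 13 and 779 in library 16, against 485, 444 and 469. Library 13 then lay below every control and library 16 above every control. In bulk RNA, a different number of endothelial cells and a different amount of RNA per endothelial cell cannot be told apart.

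No member passed the test between the genotypes. With limma on log2(level + 1) and Benjamini-Hochberg adjustment, 0 of the 10 were called at an adjusted p under 0.05, where 0% of the 19313 tested genes were called. At an unadjusted p under 0.05, 4 of the 10 were higher, against 29.2% of all tested genes, and none was lower, against 0.0207%. The edgeR quasi-likelihood test on recovered reads also called 0 of 19313 genes, with 478 at an unadjusted p under 0.05. DESeq2 called 25 genes, or 0.129%, all lower. It gave no member an adjusted p, so none of the 10 could be called by it. The median change of the 10 genes relative to the median gene was 0.05 on the log2 scale, with 6 above and 4 below, against a median of 0 over all tested genes and quartiles of -0.41 and 0.48. By library, the members' median was -0.10 in library 13 and 0.32 in library 16, against -0.07, -0.02 and 0.06 in the controls.

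**Figure D1:**
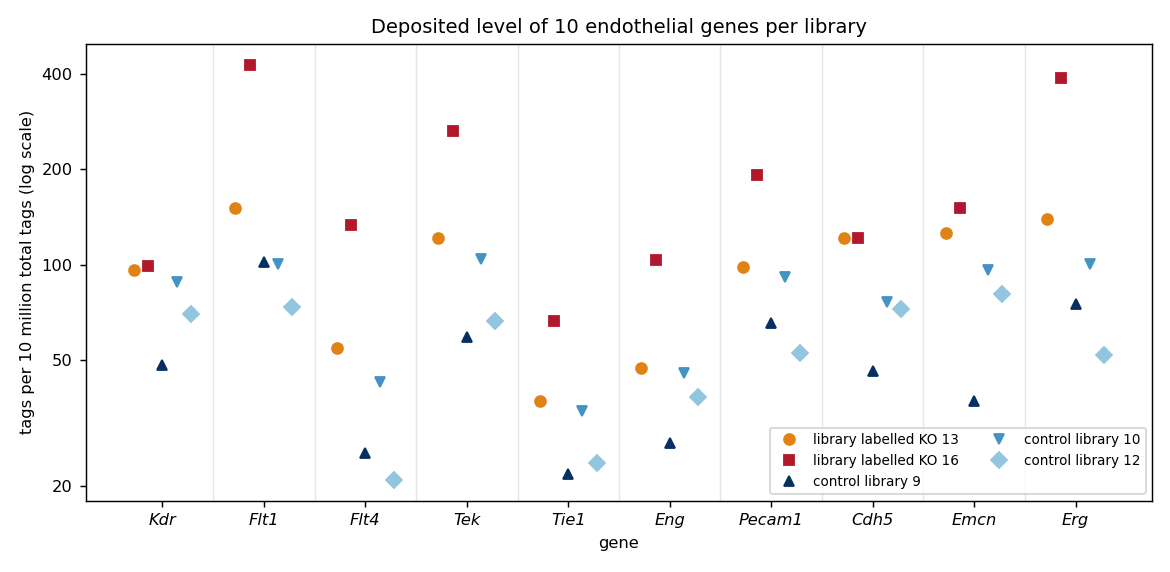
Deposited level of the 10 endothelial genes in tags per 10000000 total tags (log axis), with 1 point for each library. For each gene libraries 13 and 16 lie above every control, with Flt1 reaching 428 and Erg 388 in library 16.

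The VEGF receptor genes had changes of unlike sign relative to the median gene. None passed limma on deposited levels, where each change was positive, or on libraries centred on the median gene. The adjusted p given with each fitted log2 change is that of the deposited levels. Kdr (mm9 chromosome 5, 76329699 to 76374053) encodes the main signalling receptor for VEGF-A. It had 96.4 tags per 10000000 in library 13 and 99.1 in library 16, against 48.2, 88.2 and 70.0 in the controls. The 106 and 109 reads behind the values of libraries 13 and 16 give 95% Poisson intervals of 78.9 to 117 and 81.4 to 120, and that of control library 10 was 71.5 to 108, so the highest control overlaps both in counting error alone. Its fitted log2 change was 0.54 ± 0.57 (SE; limma adjusted p = 0.477), the smallest of the 10, and relative to the median gene it was -0.43. Relative to the median gene, Kdr was lower by library too, at -0.29 in library 13 and -0.60 in library 16, against -0.25, -0.03 and 0.28 in the controls. It was the only member below every control in both library 13 and library 16 on that scale, an order that 6.43% of all tested genes showed, so 1 of 10 is near the background. None of the 10 lay above every control in both, an order that 6.83% of genes showed. With background subtracted and TMM factors, Kdr had 51.9 in library 13 and 33.9 in library 16, against 59.0, 67.3 and 69.5 in the controls, again below each of them, as were 7.39% of genes. With TMM factors alone it was again the 1 member below every control, an order that 6.8% of genes showed. On these scales 0 members lay above every control, against 8.78% of genes with background subtracted and 8.5% without. On libraries centred on the median gene, limma gave Kdr an adjusted p of 0.833 (unadjusted p = 0.324), and 0 of the 10 members had an unadjusted p under 0.05, against 2.85% of genes. In that limma fit Flt1, Flt4 and Erg had adjusted p of 0.833, 0.826 and 0.826.

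Flt1 (mm9 chromosome 5, 148374172 to 148537164) encodes the receptor that binds VEGF-A tightly and limits its signal. It had 151 tags per 10000000 in library 13 and 428 in library 16, against 102, 101 and 73.6 in the controls. Library 16 held 2.63 tags per kilobase of the region and library 13 held 0.93, against 0.45 to 0.62 in the controls. The fitted log2 change was 1.47 ± 0.55 (SE; limma adjusted p = 0.0824) and 0.50 relative to the median gene. That relative change rested on library 16, where Flt1 was 1.05 above the control mean; library 13 lay at -0.09, inside the control range of -0.28 to 0.37. The expected background was 51.0% of the Flt1 level in library 13 and 57.0% in library 16, against a control range of 34.6% to 63.8%. With it subtracted and TMM factors, Flt1 had 50.9 in library 13 and 191 in library 16, against 96.0, 34.8 and 53.1 in the controls, so library 16 alone lay outside.

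Flt4 (mm9 chromosome 11, 49423981 to 49466241) encodes the VEGF-C receptor of lymphatic and sprouting endothelium. Its level was 54.5 tags per 10000000 in library 13 and 134 in library 16, against 25.5, 42.7 and 20.9 in the controls. The log2 change was 1.56 ± 0.61 (SE; limma adjusted p = 0.0896) and 0.59 relative to the median gene. Here too library 16 carried the difference, at 1.03 above the control mean relative to the median gene, while library 13 at 0.11 lay inside the control range of -0.21 to 0.14. Flt4 and Kdr have regions of 42.3 and 44.4 kb, and in library 16 the expected background was 47.4% of the Flt4 level and 67.0% of the Kdr level. Its part in these values was not tested. Without the background and with TMM factors, Flt4 had 23.8 in library 13 and 72.9 in library 16, against 23.4, 24.8 and 15.8 in the controls.

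**Figure D2:**
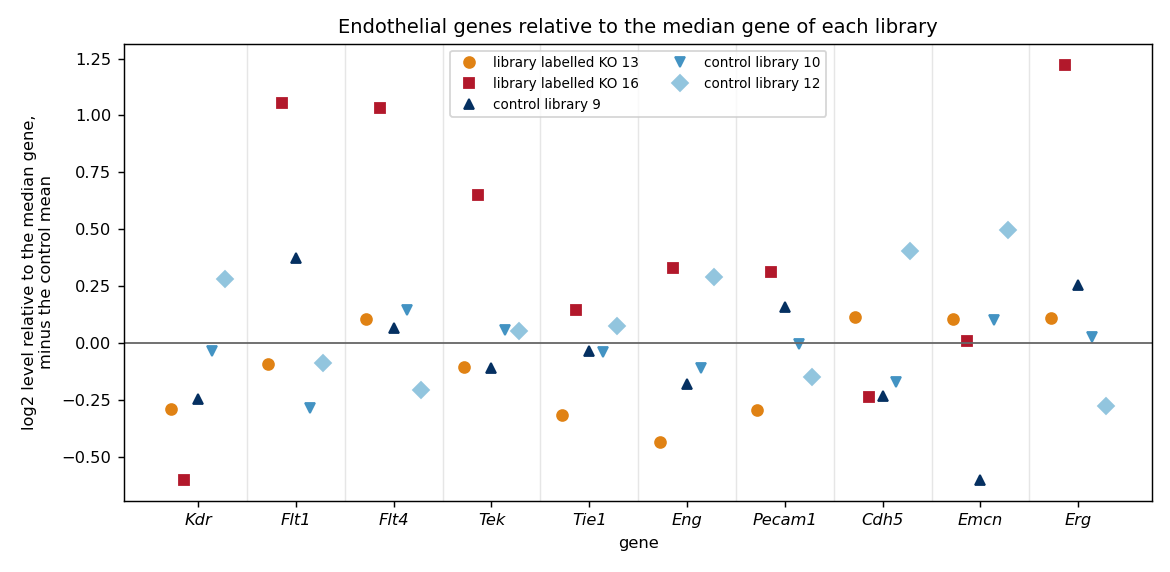
Log2 level of each gene relative to the median tested gene of its library, minus the mean of the 3 controls (line at 0), with 1 point for each library. Kdr is below every control in libraries 13 and 16; Flt1, Flt4 and Erg are 1.03 to 1.22 above the control mean in library 16 and near it in library 13.

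In fitted change the angiopoietin receptor genes lay nearer to the median gene. Tek (mm9 chromosome 4, 94406791 to 94541630) encodes the receptor for angiopoietins that steadies new vessels. It had 122 tags per 10000000 in library 13 and 264 in library 16, against 59.1, 105 and 66.4 in the controls. Its log2 change was 1.26 ± 0.56 (SE; limma adjusted p = 0.122), or 0.29 relative to the median gene. Relative to that gene, library 16 was at 0.65, above every control. Library 13, at -0.11, lay inside the control range of -0.11 to 0.06. The expected background was 76.6% of the Tek level in library 16, and after subtraction with TMM factors Tek had 40.0 in library 13 and 64.0 in library 16, against 39.1, 48.9 and 49.9 in the controls.

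Tie1 (mm9 chromosome 4, 118144196 to 118162054), whose product forms complexes with TEK, had the shortest region and the lowest level. It had 37.3 tags per 10000000 in library 13 and 66.4 in library 16, against 21.8, 34.5 and 23.6 in the controls. The log2 change was 0.90 ± 0.63 (SE; limma adjusted p = 0.298) and -0.07 relative to the median gene. Relative to that gene the 3 controls lay within -0.04 to 0.08, the narrowest spread of the 10 (SD 0.07), with library 13 below them at -0.32 and library 16 above them at 0.15. The 41 reads of library 13 limit how far this order can be read: their Poisson interval is 26.7 to 50.6 tags per 10000000.

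Eng (mm9 chromosome 2, 32502915 to 32538189) encodes endoglin, a co-receptor for BMP9 and TGF-beta on endothelium. It had 47.3 tags per 10000000 in library 13 and 104 in library 16, against 27.3, 45.5 and 38.2 in the controls. The log2 change was 0.93 ± 0.60 (SE; limma adjusted p = 0.265) and -0.04 relative to the median gene. This near-zero mean joined unlike libraries: Eng was at -0.44 in library 13, below every control, and at 0.33 in library 16, above every control, with controls at -0.18 to 0.29.

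The junction and surface genes showed no shared direction. Cdh5 (mm9 chromosome 8, 106626325 to 106668402) encodes VE-cadherin, the adhesion molecule of endothelial adherens junctions. It had the same level of 122 tags per 10000000 in libraries 13 and 16, against 46.4, 76.4 and 72.7 in the controls. Its log2 change was 0.93 ± 0.57 (SE; limma adjusted p = 0.244), or -0.04 relative to the median gene. Relative to that gene it was at 0.11 in library 13 and -0.24 in library 16, against -0.23, -0.17 and 0.40 in the controls. The expected background was 16.3% of its level in library 13 and 51.7% in library 16; with it subtracted and TMM factors Cdh5 had 70.1 and 61.0 in libraries 13 and 16, within the controls at 57.0, 56.9 and 72.9.

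Pecam1 (mm9 chromosome 11, 106515932 to 106576195) encodes CD31, an adhesion molecule at endothelial cell contacts that platelets and leukocytes also carry. It had 98.2 tags per 10000000 in library 13 and 192 in library 16, against 65.5, 91.8 and 52.7 in the controls. The log2 change was 0.999 ± 0.56 (SE; limma adjusted p = 0.21) and 0.03 relative to the median gene. Libraries 13 and 16 lay on opposite sides, at -0.29 and 0.31, each outside the control range of -0.15 to 0.16.

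Emcn (mm9 chromosome 3, 137004842 to 137094033) encodes endomucin, a sialoglycoprotein of venous and capillary endothelium. It had 126 tags per 10000000 in library 13 and 151 in library 16, against 37.3, 96.4 and 80.9 in the controls, which were the most spread of the 10 relative to the median gene (SD 0.56). The log2 change was 1.05 ± 0.56 (SE; limma adjusted p = 0.191), or 0.08 relative to the median gene. In library 16 the expected background was 88.5% of the Emcn level, the highest share among the 10 genes in any library. With it subtracted and TMM factors, Emcn had 57.9 in library 13 and 18.0 in library 16, against 23.0, 58.2 and 73.8 in the controls, and its relative change then turned to -0.50.

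Erg (mm9 chromosome 16, 95582211 to 95751572), the ETS factor gene, had 140 tags per 10000000 in library 13 and 388 in library 16, against 75.5, 101 and 51.8 in the controls. Its log2 change of 1.66 ± 0.55 (SE; limma adjusted p = 0.0707) was the largest of the 10 and was 0.69 relative to the median gene. Library 16 was 1.22 above the control mean relative to the median gene, and library 13, at 0.11, lay inside the control range of -0.28 to 0.25. The expected background was 57.1% of the Erg level in library 13 and 65.3% in library 16, against a control range of 51.0% to 66.3%. After subtraction with TMM factors Erg had 41.3 in library 13 and 140 in library 16, against 51.1, 32.4 and 27.9 in the controls.

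**Figure D3:**
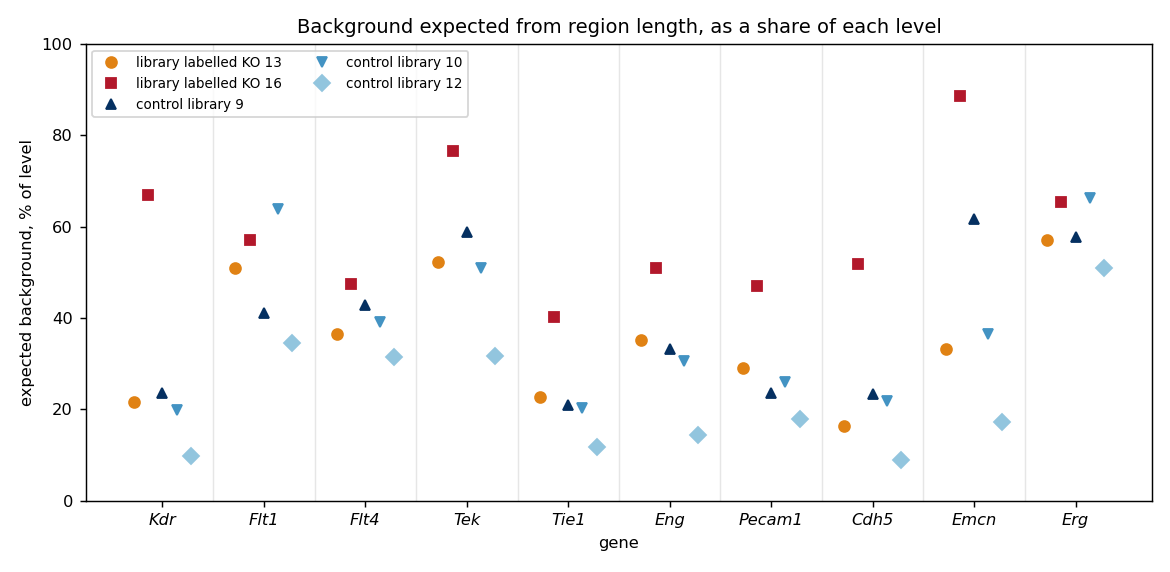
Background expected from region length, as a percentage of the level of each gene in each library. In library 16 it runs from 40.3% for Tie1 to 88.5% for Emcn, and in control library 12 from 9.03% for Cdh5 to 51.0% for Erg.

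The size of the positive relative changes of Erg, Flt1 and Flt4, and the sign for Flt1, depended on library 16. Without library 13, edgeR on recovered reads set library 16 alone against the controls and called these 3 members higher, with adjusted p of 0.00219, 0.0094 and 0.0161; it called 19.6% of all genes higher and 22.1% lower. The relative log2 changes in that fit were 1.05 for Erg, 0.88 for Flt1 and 0.89 for Flt4. With library 16 left out instead, the same test called none of the 10, 0.00518% of genes as higher and 0.0259% as lower, and their relative log2 changes were 0.10, -0.10 and 0.12. DESeq2 aside, the settings that kept all 5 libraries gave Erg an adjusted p of 0.0603 to 0.83. That of Flt1 ran from 0.0763 to 0.833 and that of Flt4 from 0.0738 to 0.83. In edgeR Kdr was at -0.76 without library 13 and at -0.28 without library 16. Tek also turned with library 16, at 0.50 without library 13 and at -0.09 without library 16. Across the 10 genes, the change in library 16 had a Spearman rho of 0.54 with region length and of -0.07 with the share of expected background. In library 13 the values were 0.45 and 0.14. These are descriptions over 10 genes that share the same libraries. The share of expected background has the level of the same library as its divisor, so it falls as that level rises. Its rho therefore cannot show how far background bears on the changes, which was not tested.

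The make-up of the summed endothelial level does not depend on how a library is scaled. Erg took 14.1% and 19.9% of the sum in libraries 13 and 16, against 14.8%, 12.9% and 9.41% in the controls, and Kdr took 9.69% and 5.09%, against 9.48%, 11.3% and 12.7%. Tie1 took 3.75% and 3.41%, below each control at 4.29%, 4.42% and 4.29%. The difference of -0.76 percentage points in Tie1 had p = 0.1 in a 2-sided exact permutation test, the smallest p that 2 libraries against 3 allow (adjusted p = 0.6 over the 10 genes). Eng also took less in libraries 13 and 16 (4.75% and 5.32%) than in any control (5.37%, 5.81% and 6.93%; exact permutation p = 0.2). Flt4 took more in both (5.48% and 6.86%) than in any control (5.01%, 5.47% and 3.80%; exact permutation p = 0.2), with library 13 and control library 10 nearly equal. For the other 7 genes the groups overlapped. No share could pass a threshold of 0.05 in this design. With background subtracted first, the Tie1 and Eng groups overlapped and Flt4 remained above every control (5.60% and 9.36%, against 4.82%, 5.58% and 3.36%; exact permutation p = 0.1).

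**Figure D4:**
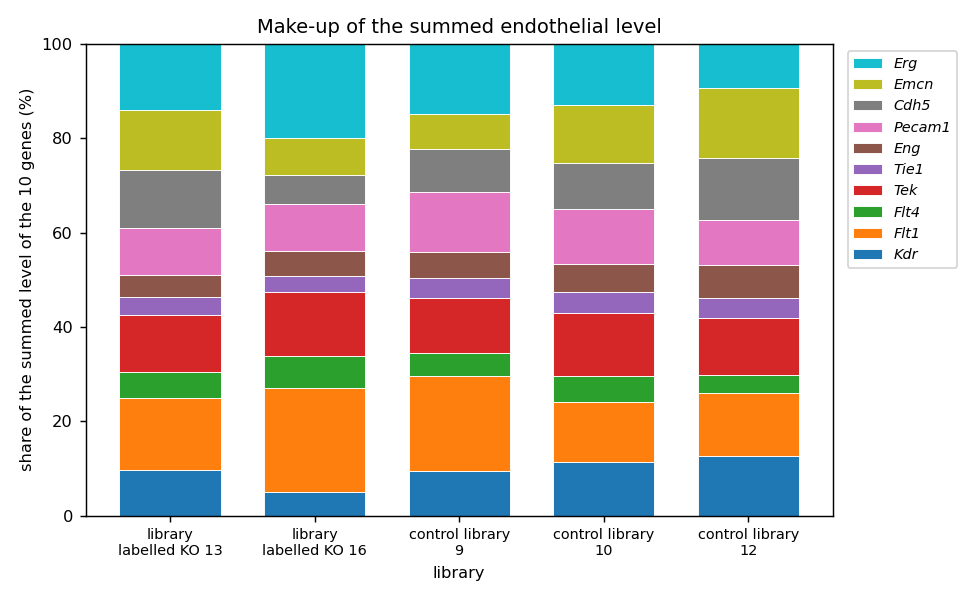
Share of each gene in the summed level of the 10 endothelial genes, in percent, stacked for each library. Flt1 and Erg take 22.0% and 19.9% in library 16, where Kdr takes 5.09% and Cdh5 6.26%.

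Per kilobase of region, the order of levels in the controls was as follows. Kdr and Cdh5 led, at 1.55 ± 0.45 and 1.55 ± 0.39 tags per 10000000 per kilobase (SD, n = 3), followed by Tie1 at 1.49 ± 0.39, Pecam1 at 1.16 ± 0.33 and Eng at 1.05 ± 0.26. Emcn followed at 0.80 ± 0.34, Flt4 at 0.70 ± 0.27, Tek at 0.57 ± 0.18, Flt1 at 0.57 ± 0.10 and Erg at 0.45 ± 0.14. Of the 9 pairs of neighbours in this order, 7 differed by less than the smaller of their SDs. The exceptions were Tie1 against Pecam1 and Flt1 against Erg. With the expected background subtracted, a setting chosen after seeing the data, the order was the same and ran from 1.28 ± 0.40 for Kdr to 0.18 ± 0.03 for Erg. The same levels were also divided by the length of annotated exon (GRCm38), again a setting chosen after seeing the data. The order then differed, with Emcn highest at 27.6, Erg next at 21.9, Kdr at 11.6 and Flt4 lowest at 4.75. These levels still hold tags over introns and background, so they do not measure exon reads. Exon length was 2.90% of the region for Emcn and 2.05% for Erg, against 13.4% for Kdr and 14.8% for Flt4.

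Genes with the profile closest to the mean profile of the 10 across the 5 libraries included Peg13, Prex2, Kank2 and Ppip5k1, chosen from 10978 genes by the smallest root mean square difference on the log2 scale relative to the median gene. Their distances were 0.03 to 0.04. Those of the members ran from 0.11 for Tie1 to 0.40 for Kdr, so the members were farther from their own mean than these genes were. With 5 libraries, 202 genes lay closer than the closest member.

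Other genes of the vessel pathway, listed by role, also gave no call. Of 90 measured ligands, receptors, junction genes and transcription factors, 0 passed the limma test, and 39 lay above and 51 below the median gene, with a median relative log2 change of -0.09. Their levels were above every control in both library 13 and library 16 for 48 and below every control for 1, Gja4, against 50.2% and 0.202% of all tested genes. The 13 ligands had a median of 0.28, with 8 above the median gene. Angpt1, the TEK agonist made by perivascular cells, had 791 tags per 10000000 in library 13 and 485 in library 16, against 209, 499 and 451 in the controls. Angpt2, its context-dependent antagonist, had 415 and 560 in libraries 13 and 16, against 165, 321 and 278. Tgfb2 had a relative log2 change of -0.19.

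The 22 other endothelial receptors had a median of 0.11, 13 above and 9 below. Efnb2, the arterial ephrin ligand, had 876 in library 13 and 305 in library 16, against 275, 433 and 521 in the controls, and its relative change was -0.59. Bmpr2 and Tgfbr2, receptors of the BMP and TGF-beta pathways, had relative changes of -0.38 and 0.12. The 28 junction and surface genes had a median of -0.17, with 18 below the median gene. The catenin genes Ctnnb1 and Ctnnd1 and the tight junction gene Tjp1 had the highest levels of that list and are used by epithelium as well. Their relative log2 changes were -1.07, -0.74 and -0.81. These rested on library 16, at -2.13, -1.50 and -1.62. Library 13 was near the control mean, at -0.04, -0.01 and -0.04. The 27 transcription factors had a median of -0.21, with 19 below. Etv6, Mef2c and Fli1, of which Fli1 is the ETS factor closest to Erg, had relative changes of -0.01, -0.41 and -0.23. Unlike Erg, Fli1 was near the control mean in library 16, at -0.15.

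Markers of blood and mural cells, some of which share genes with endothelium, had higher sums in library 16 than in any control. On levels with background subtracted and TMM factors, the 11 megakaryocyte and platelet markers summed to 56.5 in library 13 and 184 in library 16, against 54.4 to 93.9 in the controls. Itgb3 and Gp1bb had the highest levels of this list, and 6 of the 11 markers lay above the median gene. The 13 macrophage markers summed to 67.0 and 156, against 69.6 to 97.4, yet their median relative log2 change was -0.03, with 7 of 13 below the median gene. Emr1 had 12.2 and 49.6, against 11.5 to 28.7, while Ptprc was at 13.1 in library 13 and at 0 in library 16, where the expected background exceeded its level, against 7.85 to 9.83. The 9 erythroid markers summed to 214 and 698, against 325 to 552. Hba-x alone had 504 of the sum in library 16, against 221 to 371. With TMM factors alone it had 298, within the controls at 245 to 508. In library 16 Slc4a1 had 99.2, against 39.1 to 53.4, and Alas2 46.3, within the controls at 41.8 to 98.3. The median relative log2 change of this list was -0.11, with 5 of 9 below the median gene. The 11 mural cell markers summed to 309 and 495, against 370 to 397. The mural markers were divided in library 16: Myh11 had 103, against 14.5 to 30.5 in the controls, while Notch3 had 121, against 142 to 184, and Pdgfrb 72.2, against 80.1 to 117. Their median relative log2 change was -0.12. The sum of the 12 head mesenchyme markers, led by Col3a1, was 893 in library 13 and 610 in library 16, against 1087 to 1204. Relative to the median gene, 5 of the 12 lay below every control in both libraries, an order that 6.43% of all tested genes showed. Another 2, Prrx1 and Prrx2, lay above every control, as did 6.83% of all tested genes. The 11 Rathke's pouch markers, which define the labelled tissue, summed to 934 and 437, against 665 to 798, and were present in every library. No marker was at 0 in all 5 libraries. The part of these cells in the endothelial values was not tested.

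**Figure D5:**
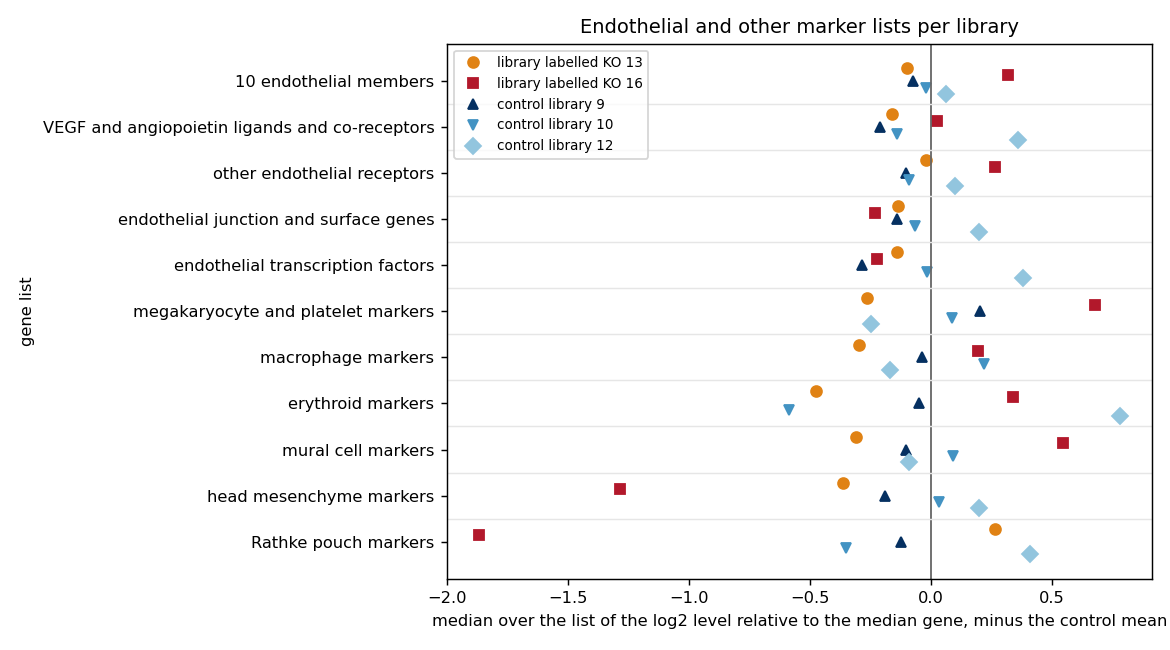
Median over each gene list of the log2 level relative to the median gene of its library, minus the control mean, with 1 point for each library. The 10 endothelial genes lie at -0.10 in library 13 and 0.32 in library 16, while head mesenchyme and Rathke's pouch markers are at -1.29 and -1.87 in library 16.

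The authors also deposited a table of changed genes, which names 5.1% of all gene symbols, 2.84% as higher. It names 1 of the 10 members. The authors' deposited table lists Cdh5 with a log2 fold change of 1.17 and a p-value of 0.00427, with values of 18 for KO and 8 for WT whose unit and libraries it does not give. Its fold change of 2.3 stands beside another column, headed FC, at 1.59. The levels of Cdh5 in the table of all genes gave a log2 change of 0.93 before, and -0.04 after, the median gene was taken off.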

How the data were processed

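The values the authors deposited are a signal for each gene region in 5 libraries, scaled to 10000000 total tags per the file headers. Per the labels' protocols, ribosomal RNA was depleted with Ribo-Zero and strand-specific libraries were made with ScriptSeq v2. Bowtie2, HOMER, edgeR and build mm9 are in the submitters' processing notes, without roles. All regions carry a plus sign, so overlapping or antisense genes cannot be told apart. The authors' deposited table of changed genes gives a log2 fold change, fold changes (ratio), a p-value and a score per genotype; whether that p was adjusted is not stated.

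The longest region was kept per symbol. Values were tested as log2(value + 1) with limma 3.58.1 in R 4.3.3, trend option on, over genes with a mean of at least 1, which understates changes of low genes. Values are whole multiples of 1 read at 11000000 tags per library (100.00% of values within 0.01 reads), and these reads entered edgeR 4.0.16 and DESeq2 1.42.0 as alternatives. Intervals are exact Poisson at 95% and cover counting error only. Background came from 406 receptor genes and was subtracted with a floor of 0. The members and lists were chosen with earlier results of these data known. Named genes were the 10 members, Itgb1, the 3 of highest mean level per pathway list with no call, and the 5 closest profiles at a mean of at least 20, of which 1 is not reported here. Some listed genes are not analysed here. Separate biological replicates are stated in the labels. The edgeR test, and limma on TMM-scaled values, were run on simulated counts. Those libraries shared a mean profile apart from the changes put in, so they held no difference in background between libraries. The limma fit on deposited levels and DESeq2 were not simulated.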

Additional observations from a re-analysis of the deposited data

How the results depend on the processing

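No paired analysis was possible because the groups share no replicate numbers. The count of called genes stayed at 0 under the other pseudocounts, filters, scalings and region choice, and was 2685 at an adjusted p under 0.1, all higher, and 25 with DESeq2. Leaving out 1 library gave 0 to 8060, the highest without library 13 (edgeR, chosen after seeing the data; 2867 with background subtracted and TMM factors) and 6 without library 16 in edgeR. The members' median relative log2 change of 0.05 was 0.20 at pseudocount 5, 0.19 with background subtracted, 0.15 with TMM factors added to that, -0.048 in edgeR, -0.047 in DESeq2, and -0.20 to 0.61 with 1 library left out.

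Kdr stayed below and Flt1, Flt4, Tek and Erg above the median gene in all 11 settings that kept every library. Directions of the near-zero members turned: Pecam1 to -0.0041 at pseudocount 0.5, -0.035 with TMM factors, -0.044 in edgeR and -0.038 in DESeq2; Cdh5, Tie1 and Eng to 0.10, 0.035 and 0.088 at pseudocount 5, to 0.13, 0.19 and 0.11 with background subtracted, and to 0.077, 0.16 and 0.076 with TMM factors as well. Emcn turned to -0.46 and -0.50 in those last 2 settings, -0.052 in edgeR and -0.057 in DESeq2. The cause was not tested. With 1 library left out the ranges were -0.42 to 0.66 for Pecam1, -0.39 to 0.23 for Cdh5, -1 to -0.28 for Kdr, -0.18 to 1.66 for Flt1, 0.11 to 1.67 for Flt4, -0.23 to 0.53 for Tek, -0.39 to 0.58 for Tie1, -1.39 to 0.29 for Emcn, -0.60 to 0.64 for Eng and 0.10 to 1.84 for Erg. Without library 13 or 16 the other is assumed to vary like the controls. The share of Tek turned to -1.08 percentage points with background subtracted. Shares with 1 library left out differed by -4.44 to 1.55 points for Cdh5, -0.26 to 6.55 for Flt1, -0.0999 to 1.19 for Tek and -3.70 to 1.26 for Emcn. With 23 to 471 reads per gene and library, depth limits small changes.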

Other observations

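Several other genes of the vessel pathway lists, chosen after their values were seen, lay below every control in both library 13 and library 16 relative to the median gene. Kdr did so too. These lists are not limited to genes that endothelium alone uses. The genes in that order were Esam, Icam2, Jam3, Gja4, Gja1, Notch1 and Clec14a among the receptors and junction genes, with Gata2 and Foxc2 among the transcription factors. Of the 90 pathway genes 9 showed that order, against 6.43% of all tested genes, and 3 showed the opposite order (Robo4, Arhgef15 and Hhex), against 6.83%. Gja4, an arterial gap junction gene, had 2.73 tags per 10000000 in each of these libraries, against 3.64, 6.36 and 7.27 in the controls. The smallest value above 0 was 0.91, so Gja4 rests on few reads, and its expected background in library 16 was 96.4% of the level. Icam2, at 2.73 in library 13, and Hhex, at 0.91 to 3.64 in the controls, also lay near that floor. Counting error limits how far these orders can be read. Clec14a, an endothelial lectin, had 16.4 in library 13 and 10.9 in library 16, against 12.7, 22.7 and 21.8. Robo4, a receptor that stabilises vessels, had 30.9 and 33.6 in libraries 13 and 16, against 9.09, 15.5 and 7.27. None passed limma, on deposited or on centred values.

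The authors' deposited table lists Angpt2 as lower, with a log2 fold change of -0.77, values of 17 for KO and 29 for WT, and an FC of 0.419. In the table of all genes libraries 13 and 16 both held more Angpt2 than any control, and its change relative to the median gene was 0.01. The authors' deposited table also lists Plxnd1, an endothelial semaphorin receptor, with a log2 fold change of 3.46 and an FC of 7.48, and its relative change in the table of all genes was -0.20. Other listed genes had a relative change of the same sign as the authors' value. They were Arhgef15 (2.17 and 0.50), Gpr116 (1.44 and 0.20), Heyl (-0.63 and -0.15) and Afap1l1 (-1.16 and -0.14). For Aplnr (1.58 and -0.60) and Stab1 (-0.1 and 0.10) the signs were opposite.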
